A study of Mus musculus with 11 samples.

Results

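The Met locus and its flanks on mouse chromosome 6 were examined from 10 to 20 Mb of build mm9, in mammary tumours that carry copy number gains there. The stretch was defined by measured values, since it was chosen because tumour over liver ratios at Met were high in these same arrays. Its members are all 531 array positions of genomic probes that start inside it, of 10252 positions on chromosome 6 and 170305 on the array. All values below therefore describe that choice, and no test was made on them.

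Met encodes the receptor tyrosine kinase that binds hepatocyte growth factor (HGF). On binding, the receptor phosphorylates itself and recruits the adaptors Gab1 and Grb2, which connect it to the PI3K, RAS and STAT3 pathways. Amplification of MET is known from several human carcinomas as a route to a receptor that signals without much ligand, and a neighbouring group of genes, CAV1, CAPZA2, ST7, WNT2 and CFTR, lies beside it in both human and mouse.

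DNA of 11 tumours was measured, each from a mouse with the Pik3ca H1047R allele on a mixed FVBN/Bl6 background, an activated form of the PI3K catalytic subunit. The liver of the same mouse, with the same allele and background, was the reference on the same array, with tumour DNA in Cy5 and liver DNA in Cy3. All 11 tumours form 1 group, numbered 1 to 11 as in the labels. The promoter or Cre line behind the allele and the ages of the mice are not given in the sources used here. A ratio below is the log2 of tumour over liver at a probe minus the median of its array. It is relative to the rest of that tumour's genome and is not a copy number, since the share of tumour cells in each sample is unknown. DNA carries no expression markers, so the labelled tissues could not be checked against any.

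The arrays differed in precision, and their number limits what can be said. The noise SD between neighbouring probes on chromosome 6 was 0.14 to 0.27 in 9 tumours, 0.55 in tumour 9 and 0.51 in tumour 11. Over all probes, tumour 11 correlated with tumours 4, 5 and 9 at r = -0.60, -0.61 and -0.65. The labels give it the same dyes as the other arrays, so its direction was kept, and its value at Met is also given turned. The arrays lie on 3 slides. The tumours with a gain at Met lie on all of them (tumours 3 and 8 on slide 1, tumour 7 on slide 2 and tumour 6 on slide 3), and each slide also holds tumours without one.

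The region's probes have 57 to 60 bases and a median GC content of 36.7%, and lie a median of 13.0 kb apart, with 1 gap of 87.3 kb as the longest. The array annotation gives 301 of the 531 probes a gene name, for 41 names. The probes that carry the main results are shown first, as the files give them (strand not given, build mm9). These are the first and the last probe of Met and the pair at each end of the stretch that all gains share. The last pair is the probe that read lowest inside that stretch, on average over the tumours with a gain, and its right neighbour.
Met, first probe, chr6:17420090-17420149: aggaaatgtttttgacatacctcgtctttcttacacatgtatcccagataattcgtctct
Met, last probe, chr6:17515887-17515946: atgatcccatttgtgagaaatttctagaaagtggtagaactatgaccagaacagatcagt
left of the shared stretch, BC067060, chr6:17249487-17249546: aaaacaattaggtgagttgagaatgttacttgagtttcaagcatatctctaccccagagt
first in the shared stretch, Cav1, chr6:17264658-17264717: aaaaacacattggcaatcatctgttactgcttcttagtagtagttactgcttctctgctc
last in the shared stretch, St7, chr6:17726821-17726880: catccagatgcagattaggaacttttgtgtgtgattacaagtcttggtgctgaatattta
right of the shared stretch, St7, chr6:17733544-17733603: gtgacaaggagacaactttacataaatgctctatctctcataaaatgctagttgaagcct
lowest probe of the shared stretch, ENSMUST00000115420, chr6:17675569-17675628: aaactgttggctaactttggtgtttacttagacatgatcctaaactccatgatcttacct
its right neighbour, ENSMUST00000115420, chr6:17688880-17688939: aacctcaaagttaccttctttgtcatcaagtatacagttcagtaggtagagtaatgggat

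Met has 12 probes between 17420090 and 17515946. Its mean ratio over them was 3.02 ± 0.24 in tumour 3, 3.38 ± 0.13 in tumour 6, 2.04 ± 0.23 in tumour 7 and 5.30 ± 0.22 in tumour 8 (SD over the 12 probes). These are 8.11, 10.4, 4.11 and 39.3 times the liver signal relative to the array median. In every one of these 4 tumours the lowest of the 12 probes (2.65, 3.10, 1.66 and 4.89 in tumours 3, 6, 7 and 8) lay above the highest Met probe of any other tumour, which was 1.04 in tumour 9. With another background correction (normexp on the raw signals) the means were larger, at 3.96, 4.38, 2.50 and 6.41 in tumours 3, 6, 7 and 8. The cause of this difference was not tested.

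The other 7 tumours had no block at Met. Its mean was 0.21 ± 0.14 in tumour 1, 0.38 ± 0.17 in tumour 2, 0.15 ± 0.21 in tumour 4, -0.01 ± 0.12 in tumour 5, 0.23 ± 0.50 in tumour 9, 0.07 ± 0.13 in tumour 10 and -0.27 ± 0.34 in tumour 11 (SD over 12 probes). With the sign of tumour 11 turned, its mean was 0.27. Tumours 1 and 2 lay above the median of chromosome 6 outside the region, by 0.44 and 0.36. The plot of single Met probes shows tumours 3, 6, 7 and 8 apart from the rest.

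**Figure D1:**
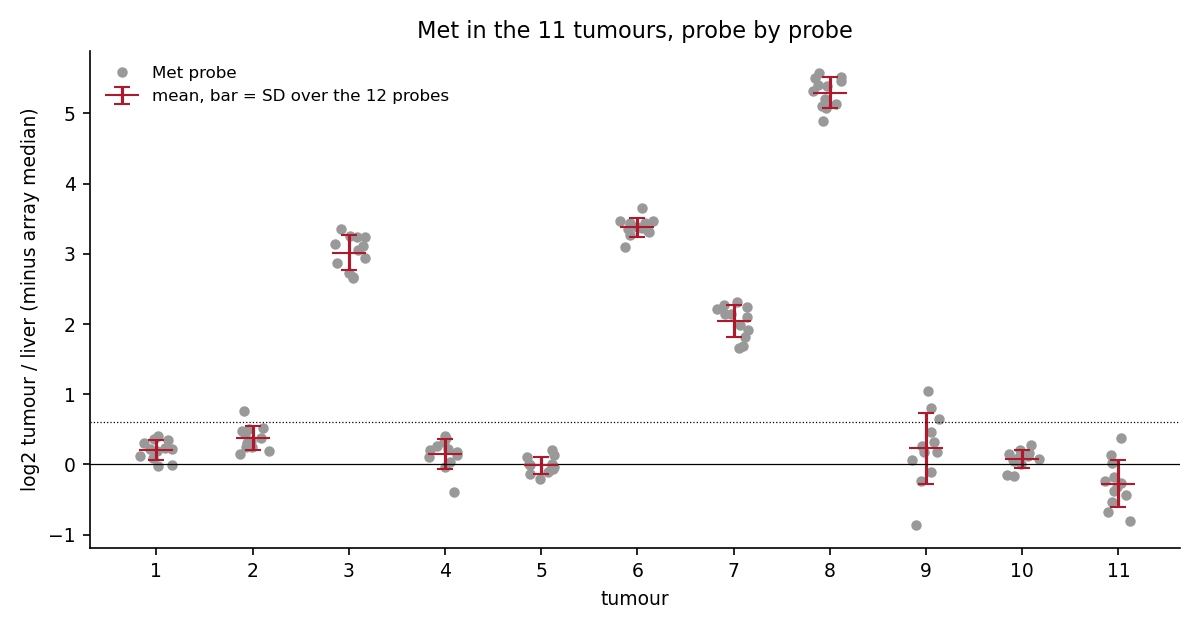
Ratio of tumour over liver at the 12 probes of Met in each of the 11 tumours (log2, minus the array median). Grey points are probes, red bars the mean and the SD over probes, and the dotted line the 0.6 threshold of a high gain. Tumours 3, 6, 7 and 8 have means of 3.02, 3.38, 2.04 and 5.30, and the other means lie between -0.27 and 0.38.

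The high ratios went with a high tumour channel. At Met the Cy5 signal of tumour DNA, relative to that channel's array median, was 2.97, 3.33, 2.07 and 4.94 (log2) in tumours 3, 6, 7 and 8. The Cy3 signal of liver DNA on the same arrays was -0.05, -0.05, 0.01 and -0.37. In the remaining tumours the tumour channel lay between -0.04 and 0.36, and the liver channel between -0.40 and 0.27. The liver of tumour 8 was thus low by 0.37 at Met, with an SD of 0.47 over its 12 probes. Over the 43 probes of the stretch that all gains share, its liver channel averaged -0.48. It was -0.23, -0.22 and -0.21 there in tumours 3, 6 and 7, and between -0.83 and -0.02 in the other 7 tumours. A lower liver signal makes the ratio higher. No spot of the region was saturated, and the brightest red spot, in tumour 8, reached 6.87% of the scanner's limit.

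**Figure D2:**
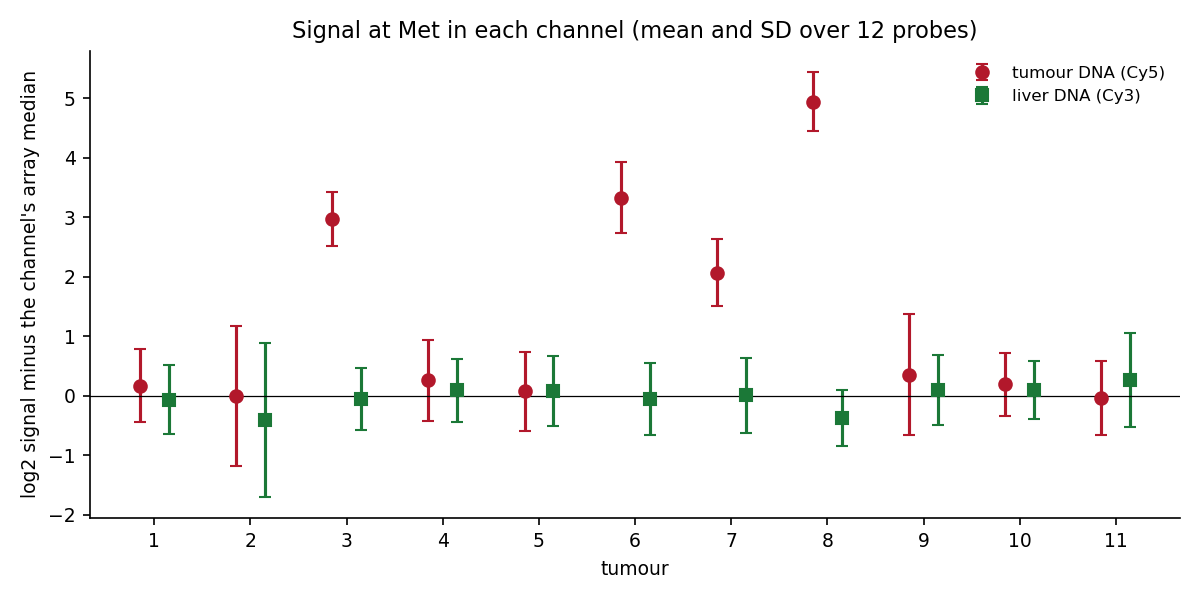
Signal at Met in tumour DNA (red circles, Cy5) and liver DNA (green squares, Cy3) of each array, as log2 minus the channel's array median, with the mean and SD over 12 probes. The tumour channel reaches 2.97, 3.33, 2.07 and 4.94 in tumours 3, 6, 7 and 8, while all liver values lie between -0.40 and 0.27.

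Each array was cut into segments of equal level, and a segment with a mean of at least 0.6 was called a high gain. A block at Met is the run of adjoining high gains that holds its probes, and tumours 3, 6, 7 and 8 had one. In the region, 127 of 530 measured probes were in a high gain in tumour 3, 67 of 531 in tumour 6, 204 of 531 in tumour 7 and 231 of 531 in tumour 8. Over all chromosomes but Y, the share of probes in high gains was 1.38% in tumour 3, 0.0899% in tumour 6, 0.374% in tumour 7 and 0.142% in tumour 8. No region probe was in a high gain in the other tumours, where the share over all chromosomes was 0.0612% in tumour 2, 0.0729% in tumour 11 and 0% in tumours 1, 4, 5, 9 and 10. Since the region was chosen on this contrast, nothing is read from these shares.

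The blocks differed in place, length and shape. Tumour 3 had a block of 2.34 Mb (15387562 to 17726880, 127 probes, median 2.99). Tumour 6 had the shortest, 0.691 Mb (17264658 to 17955967, 67 probes, median 3.47). Tumour 7 had the longest and lowest, 3.07 Mb (16482647 to 19548730, 204 probes, median 1.90), and tumour 8 the highest, 1.96 Mb (16587960 to 18547874, 163 probes, median 5.45). Met lay off centre in most of them. Its first probe was 2033 kb from the left end of the block in tumour 3, 155 kb in tumour 6, 937 kb in tumour 7 and 832 kb in tumour 8. From its last probe to the right end of the block there were 211, 440, 2033 and 1032 kb in tumours 3, 6, 7 and 8.

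**Figure D3:**
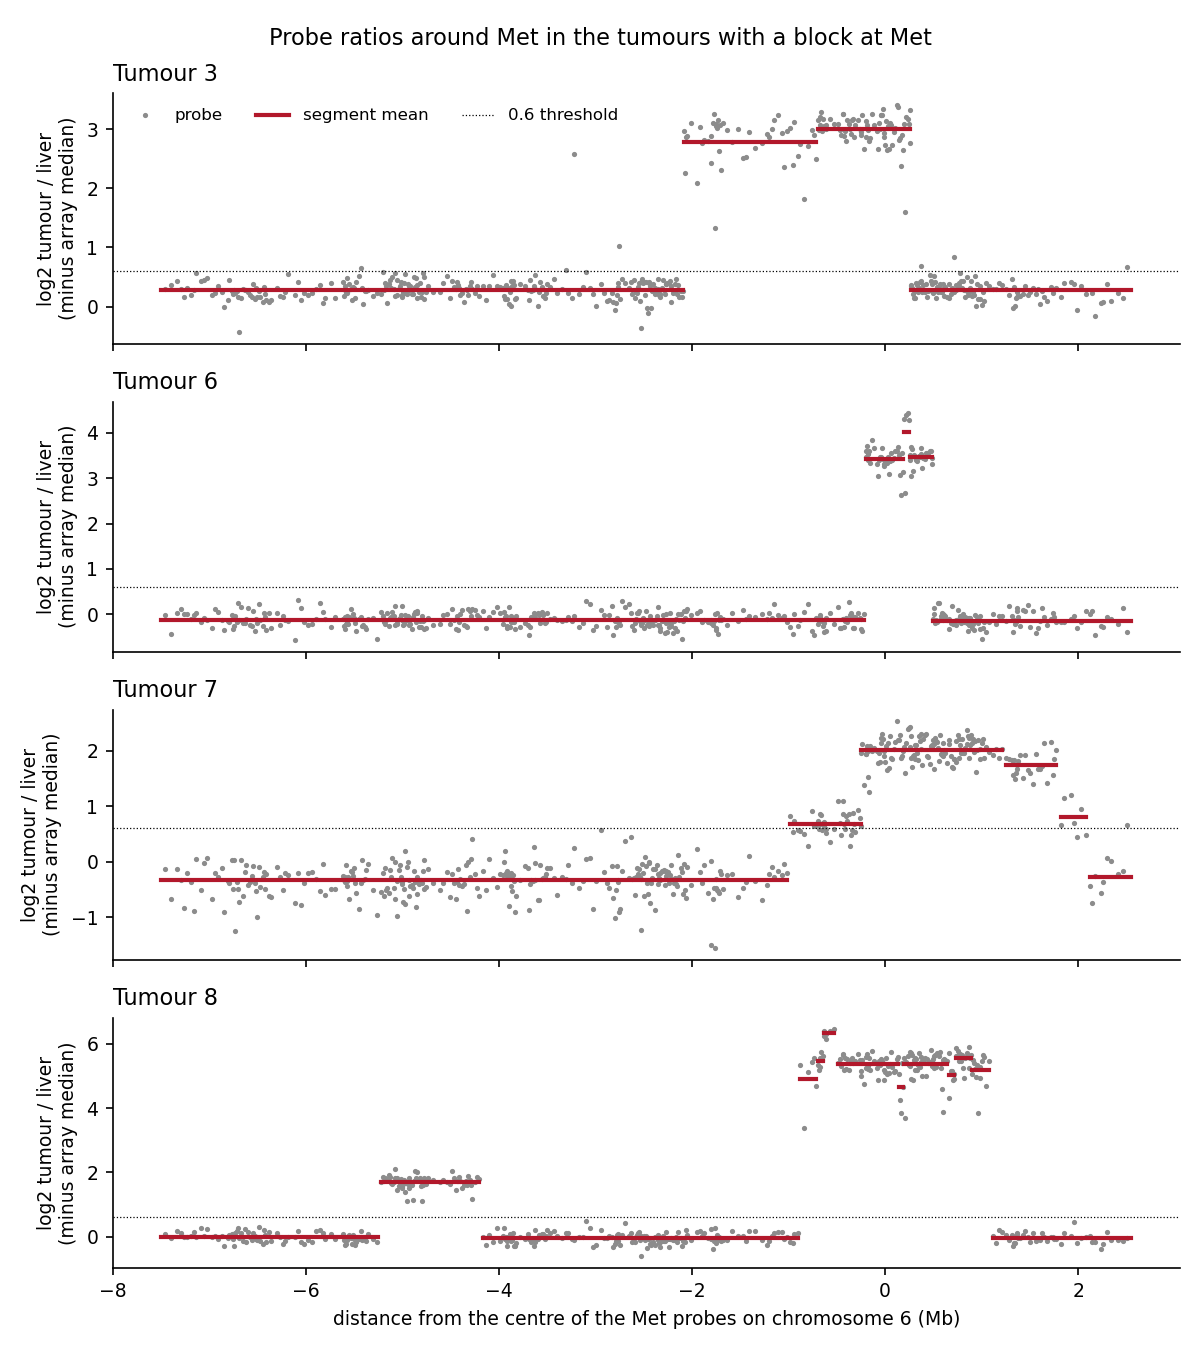
Probe ratios (log2 tumour over liver minus the array median, y axis) against the distance from the centre of the Met probes (Mb, x axis) in tumours 3, 6, 7 and 8. Grey points are probes, red lines segment means, the dotted line 0.6. The blocks are 2.34, 0.691, 3.07 and 1.96 Mb long in tumours 3, 6, 7 and 8, and tumour 8 has a second block about 3.32 Mb to the left of the first.

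In most tumours the edges were abrupt. In tumour 3 the ratio was 2.98 at the first probe inside the left edge, against 0.26 at the last probe outside it, with 16.6 kb between them. Both probes are annotated to Foxp2, a forkhead transcription factor gene that is known for its role in vocal circuits, and 1 of its 53 probes lay inside the block. At the right edge of tumour 3 the ratio was 2.78 inside and 0.36 outside, 6.66 kb apart. That edge ran through St7, a gene of unsettled biochemical role that was described as a candidate tumour suppressor in human. Its 4 probes inside averaged 3.09 ± 0.23 (2.78 to 3.33), and its 18 probes outside 0.33 ± 0.12 (0.14 to 0.69). The 2 parts of St7 did not overlap, so the gene mean of 0.83 in tumour 3 describes neither of them.

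In tumour 6 the left edge fell between the first probe of Cav1 at 3.60 inside and a probe of BC067060 at 0.00 outside, 15.1 kb apart. The probes of Cav1 form a single run, with probes of BC067060 on both sides of it. The 4 probes of BC067060 inside averaged 3.55 ± 0.22, and the 6 outside -0.15 ± 0.17. The right edge of tumour 6 cut Wnt2, which encodes a secreted Wnt ligand. Its 2 probes inside read 3.32 and 3.44, and its 3 probes outside lay between -0.10 and 0.12. The step of 7.07 kb between the probes at that edge was one of the 2 narrowest intervals at any block edge, beside that in St7.

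The edges of tumours 7 and 8 fell between named genes. In tumour 8 the left edge lay in a gap of 27.1 kb, with 5.34 inside and 0.10 outside, and the right edge in a gap of 34.7 kb beyond Cttnbp2, with 5.48 inside and 0.03 outside. In tumour 7 the outer edges were gentler, with 0.83 inside and -0.21 outside on the left (34.5 kb) and 0.48 inside and -0.44 outside on the right (37.5 kb). No block edge fell between 2 probes of Met, Cav1 or Capza2, and no 2 tumours had a block edge between the same 2 probes.

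All 4 blocks covered 17264658 to 17726880, a stretch of 0.462 Mb with 43 probes. Its left end was set by tumour 6 and its right end by tumour 3. Without tumour 6 the stretch shared by the other three was 1.14 Mb, and without tumour 3 it was 0.691 Mb. Without any other tumour it did not change. Around it, 65 probes lay in 3 blocks, 59 in 2, 76 in 1 and 288 in none. The probes of the shared stretch did not differ much in base composition, with a GC content of 37.0 ± 1.28% (SD, 43 probes), against 36.3 ± 1.80% over the 288 probes in no block.

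The 7 array names with probes in the shared stretch are Cav1, BC067060, Met, AK021346, Capza2, ENSMUST00000115420 and St7, and all 7 had a mean of at least 0.6 in all 4 tumours. Over the 9343 genes with at least 3 probes on the array, the share with such a mean was 1.18% in tumour 3, 0.161% in tumour 6, 0.396% in tumour 7 and 0.225% in tumour 8, and nothing is read from the difference, since the region was chosen on this contrast. Cav1 encodes caveolin-1, the coat protein of caveolae. Its 4 probes averaged 3.02 ± 0.11, 3.58 ± 0.10, 1.99 ± 0.07 and 5.47 ± 0.21 in tumours 3, 6, 7 and 8, against -0.13 to 0.21 in the other 7 tumours. Capza2 encodes a subunit of the protein that caps actin filaments. Its 3 probes averaged 3.20 ± 0.33, 3.59 ± 0.08, 2.31 ± 0.20 and 5.40 ± 0.29 in tumours 3, 6, 7 and 8, against -0.49 to 0.36 in the others. Cav1, Met and Capza2 were thus high together. Within a tumour their means differed by at most 0.32, while the mean of Met differed by 3.26 between tumours 8 and 7. Cav2 has no probe under its own name on the array. Met was not the highest gene in any tumour. Among the same 9343 genes it ranked 5 in tumour 3, 6 in tumour 6, 4 in tumour 7 and 11 in tumour 8. The genes above it had probes in the block at Met, except AK080631 in tumour 6, which lies in another gain of chromosome 6.

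Tes and Tfec, to the left of the shared stretch, were in the blocks of tumours 3, 7 and 8 and not in that of tumour 6. Tes, which encodes the LIM domain protein testin of focal adhesions, had means of 3.09 ± 0.19, 0.81 ± 0.23 and 5.52 ± 0.22 (SD over 4 probes) in tumours 3, 7 and 8, and -0.16 ± 0.08 in tumour 6. Tfec (Tcfec on the array), a transcription factor of the MITF family, had 3.11 ± 0.11, 0.71 ± 0.10 and 5.76 ± 0.41 in tumours 3, 7 and 8, and -0.18 ± 0.13 in tumour 6 (7 probes). In tumour 7 both genes sat on a lower shelf, 1.23 and 1.33 below its mean at Met. Mdfic, which encodes an inhibitor of MyoD family transcription factors, was inside the block of tumour 3 only, at 2.83 ± 0.63 (8 probes), against -0.20, -0.64 and -0.09 in tumours 6, 7 and 8. In the 7 tumours without a block, the means of Tes, Tfec and Mdfic lay between -0.32 and 0.41.

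Asz1, Cftr and Cttnbp2, to the right, were in the blocks of tumours 7 and 8. Asz1, a germ cell gene of the piRNA pathway in mouse, had means of 2.03 ± 0.17 and 5.44 ± 0.45 (6 probes) in tumours 7 and 8, and 0.30 and 0.03 in tumours 3 and 6. Cftr, the chloride channel gene mutated in cystic fibrosis, had 2.00 ± 0.19 and 5.36 ± 0.42 (16 probes) in tumours 7 and 8, and 0.37 and -0.12 in tumours 3 and 6. Cttnbp2, which encodes a cortactin-binding protein of neurons, had 2.08 ± 0.18 and 5.28 ± 0.48 (15 probes), and 0.26 and -0.19 in tumours 3 and 6. Wnt2 averaged 2.04 ± 0.21 and 5.44 ± 0.16 (5 probes) in tumours 7 and 8, was cut in tumour 6, and was 0.33 ± 0.11 in tumour 3. St7 averaged 3.53 ± 0.31, 2.10 ± 0.22 and 5.39 ± 0.27 (22 probes) in tumours 6, 7 and 8. Still further right, Lsm8 (1 probe), Ankrd7 (1 probe) and AK015880 (2 probes) were in the block of tumour 7 only, at 1.84, 1.60 and 1.71, against -0.20, 0.00 and -0.05 in tumour 8. The map of blocks and genes shows that Cav1, Met and Capza2 had all their probes in every block, while St7 and Wnt2 straddled an edge.

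**Figure D4:**
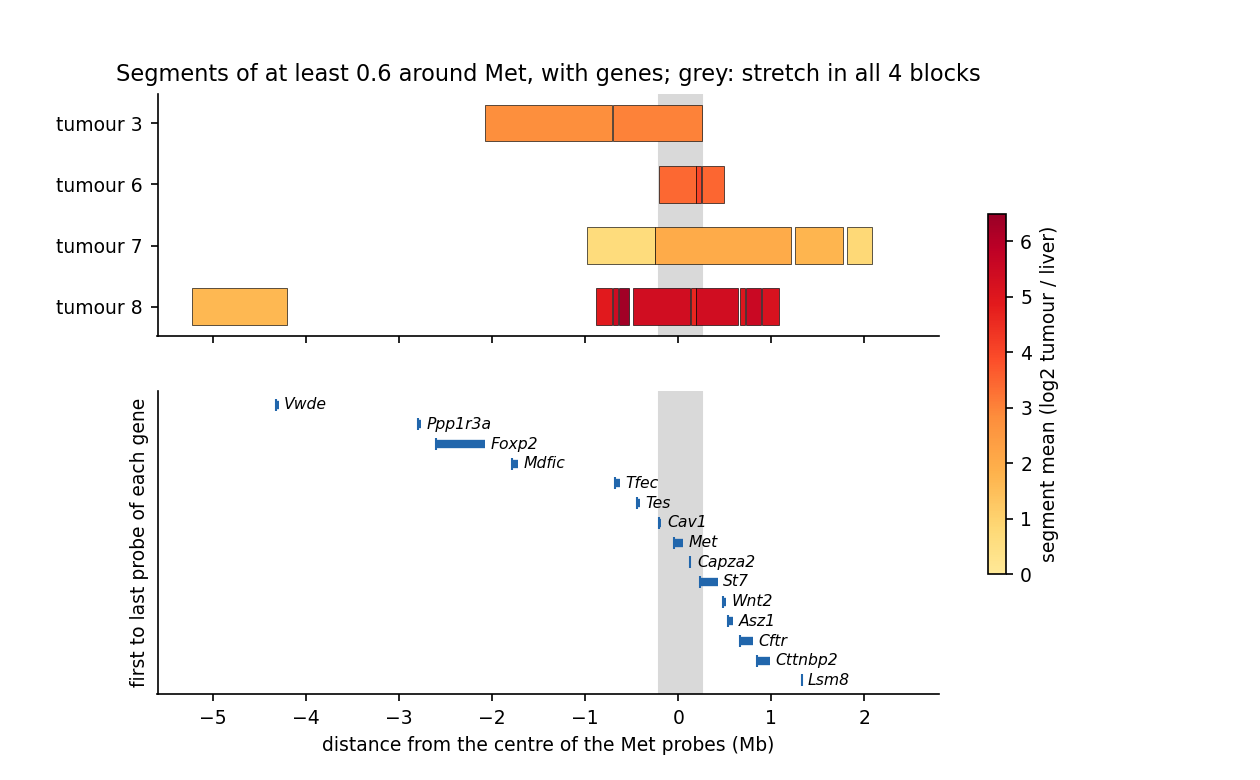
Segments with a mean of at least 0.6 in tumours 3, 6, 7 and 8 (top, coloured by the log2 segment mean) above the span from the first to the last probe of selected genes (bottom), against the distance from the centre of the Met probes (Mb). The grey band is the 0.462 Mb with 43 probes that lies in all 4 blocks and holds the whole probe spans of Cav1, Met and Capza2.

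Over the 41 gene names of the region, 7 reached 0.6 in all 4 tumours, 5 in 3, 6 in 2, 10 in 1 and 13 in none. The share over the array's genes with at least 3 probes was 1.18%, 0.161%, 0.396% and 0.225% in tumours 3, 6, 7 and 8. Some of the 41 names have only 1 or 2 probes, so the sets differ. Among the 7, BC067060 was cut by a block edge in tumour 6 and St7 in tumour 3. Nothing is read from these counts, since the region was chosen on this contrast. In the 7 tumours without a block, 3 names with 1 or 2 probes also reached 0.6, AK144227 in 2 tumours and AK139153 and Gpr85 in 1 each. Ppp1r3a, a muscle subunit that targets protein phosphatase to glycogen, and the orphan receptor gene Gpr85 lay outside every block. Ppp1r3a had means of 0.19, -0.18, -0.46 and -0.07 in tumours 3, 6, 7 and 8. The single probe of Gpr85 read 0.46, -0.27, -0.41 and -0.08 there. It read 0.92 in tumour 11 and -0.50 in tumour 5, where the noise SD between probes was 0.51 and 0.25.

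Inside the blocks the level was not even. Tumour 7 had a staircase of 4 levels, with 0.68 ± 0.18 (42 probes, to 17214909), 2.03 ± 0.21 (129 probes, to 18676627), 1.75 ± 0.21 (26 probes, to 19238673) and 0.80 ± 0.31 (7 probes, to 19548730). The largest change, of 1.35 between probes 6.48 kb apart, lay among the probes of BC067060. Its 3 probes to the left averaged 0.79 ± 0.14, and its 7 to the right 1.77 ± 0.36. With a threshold of 1 in place of 0.6, the block of tumour 7 had a length of 2.02 Mb. Beyond the block on both sides tumour 7 was at -0.33 and -0.28, close to the median of chromosome 6 outside the region of -0.28.

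Tumours 6 and 8 each had a short, higher step. In tumour 8, 6 probes over 105 kb (16831634 to 16936310) averaged 6.32 ± 0.12. They included 2 probes of Tfec at 6.24 and 6.40, while its other 5 averaged 5.54 ± 0.17. The 20 nearest probes of the block averaged 5.41 ± 0.24, a difference of 0.92 (SE 0.07 over probes). The 6 probes were set apart by their level in tumour 8 itself, so this SE is no test of the step. The same 6 probes read 0.04 (SE 0.05) above their neighbours in tumour 3 and differed from them by -0.19 (SE 0.06) in tumour 7. In the tumour channel of tumour 8 the step's median was 5.51, against 4.94 over its neighbours, and in the liver channel it was -0.76, against -0.62.

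In tumour 6, 5 probes over 49.6 kb (17663670 to 17713305) formed the step, with 4 of them at 4.28 to 4.44 and 1 at 2.67. Their median was 4.32, against 3.47 over the 20 nearest probes, a difference of 0.85. The same difference of medians was 0.21, 0.09 and 0.16 in tumours 3, 7 and 8. The difference of means was 0.62 (SE 0.34 over probes) in tumour 6, and -0.10 (SE 0.32), 0.06 (SE 0.15) and -0.06 (SE 0.38) in tumours 3, 7 and 8. These 5 probes too were set apart by their level in tumour 6 itself, so its SE is no test. The step took in the first 2 probes of St7 (mean 4.36 ± 0.11), while its other 20 averaged 3.45 ± 0.16. With a penalty of 4 in place of 2, or at least 10 probes per segment, this step was no longer a segment of its own. The step of tumour 8 remained one with the higher penalty, and with at least 10 probes it was part of a segment of 6.02. Tumour 8 was cut into 9 segments with the chosen penalty, 4 with the higher and 12 with a penalty of 1, so its smaller steps depend on that choice. With normexp the highest segment of tumour 8 had 11 probes (16787881 to 16936310), and that of tumour 6 had 5, from 17688880 to 17726880. Some inner boundaries fell between the same probes in different tumours. One lay between 17653655 and 17663670 in tumours 6 and 8, and one between 16750158 and 16769013 in tumours 3 and 8.

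**Figure D5:**
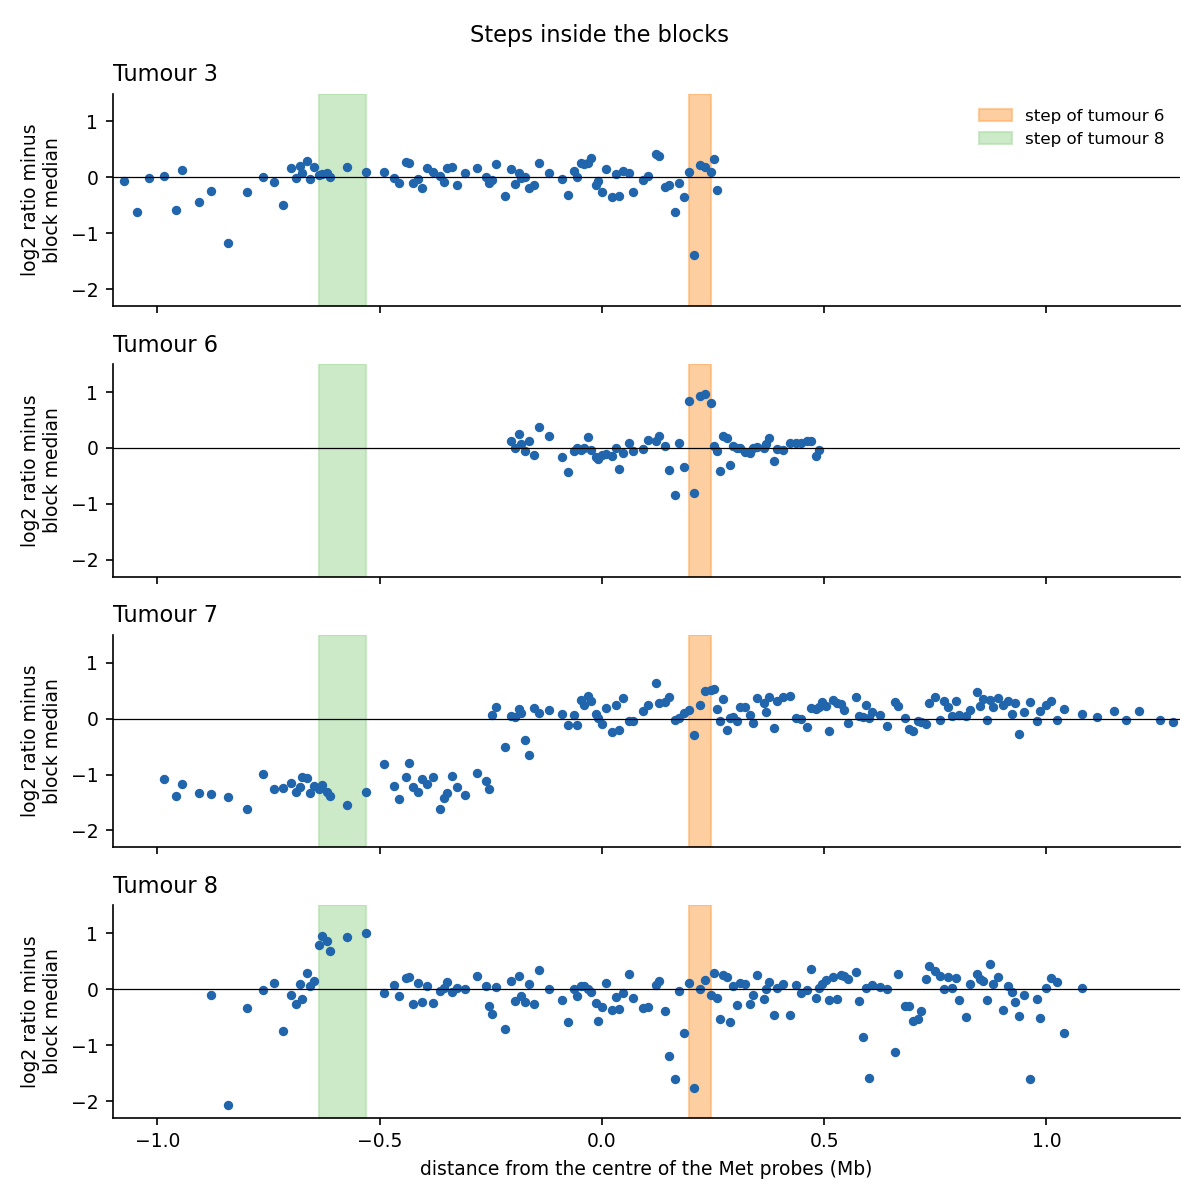
Ratio of each probe inside the block of its tumour minus the median of that block (log2, y axis), against the distance from the centre of the Met probes (Mb), for tumours 3, 6, 7 and 8. The green band marks the 6 probes that averaged 6.32 in tumour 8, the orange band the 5 probes with a median of 4.32 in tumour 6, and each stands out in its own tumour.

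Other dips recurred at the same probes in several tumours. By the mean over the 4 tumours, the lowest probe of the shared stretch lay at 17675569. It read 1.60, 2.67, 1.61 and 3.69 in tumours 3, 6, 7 and 8. That was 1.41, 0.80, 0.43 and 1.64 below the median of the 43 probes there. Its right neighbour read 3.21, 4.41, 2.15 and 5.45. Both probes have 60 bases and a GC content of 36.7%. The next lowest by that mean, at 17632776, read 2.37, 2.64, 1.87 and 3.84. In tumour 6 this probe was the lowest. In tumour 7 the lowest was another probe, at 17304462, with 1.26. Across the 43 probes, the ratios of 2 tumours correlated at Pearson's r of 0.28 (tumours 7 and 8) to 0.83 (tumours 3 and 8), over the 6 pairs of the 4 tumours. The points of such a pair share the probe, and tumours 3 and 8 also share a slide. A segment of tumour 8 at 4.65 ± 0.62 (5 probes, 17609767 to 17653655) holds such a probe. The difference of medians between these 5 probes and their neighbours was -0.70 in tumour 8, -0.40 in tumour 6, -0.25 in tumour 3 and -0.10 in tumour 7. In tumour 8 the tumour channel's median was 4.22 over the 5 probes, against 5.03 over the neighbours. The liver channel's median was 0.24, against -0.50. In tumours 3, 6 and 7 the liver medians were -0.33, -0.26 and -0.85, against -0.02, -0.01 and 0.09. The cause of the dips was not tested. For the 5 region probes that are printed several times on each array, the median SD over spots was 0.04 to 0.13 by array, and the highest was 0.26.

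Tumour 8 had a second block to the left of the first. It ran from 12244139 to 13264012 (1.02 Mb, 68 probes) with a mean of 1.69 ± 0.20 (probes from 1.09 to 2.11), or 3.24 times liver. The edges were abrupt, with 1.68 inside and -0.16 outside on the left, 36.9 kb apart, and 1.78 inside and 0.00 outside on the right, 40.3 kb apart. Between the blocks lay 3.32 Mb, where 167 probes averaged -0.04 ± 0.16. Of the 6 names in the second block, ENSMUST00000119581 had 41 probes with a mean of 1.68 ± 0.22, and Vwde, a gene with von Willebrand factor domains, 3 probes with 1.76 ± 0.14. The single probe of Tmem106b, a lysosomal membrane protein gene, read 1.74, that of AK032313 also 1.74, that of BC052230 1.84, and the 2 probes of ENSMUST00000096108 averaged 1.68. The same 68 probes averaged between -0.35 (tumour 7) and 0.32 (tumour 3) in the other 10 tumours.

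Outside the block of tumour 3, 7 single probes of the region read at least 0.6. The highest, at 14242768 to 14242827 in no named gene, read 2.58 in tumour 3, close to the block's median of 2.99, while its neighbours 25.0 and 50.4 kb away read 0.15 and 0.22. In the other 10 tumours it lay between -0.11 and 0.38. The other 6 read 0.61 to 1.03 in tumour 3. The highest was picked out after its value was seen, and a single probe cannot make a segment here.

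The flanks of the blocks carried the level of the chromosome in some tumours and not in others. In tumour 3 the segments on both sides had a mean of 0.28, which was 0.37 above the median of chromosome 6 outside the region, and the right one ended at 26598988. In tumour 6 the flanks were -0.13 and -0.15, and in tumour 8 -0.03 and -0.04, within 0.08 of the same median. Among the tumours without a block, tumour 2 had a segment of 0.22 from 11720671 to 26122962, and tumour 1 one of 0.05 from 3131098 to 59815936, which was 0.28 above its own chromosome 6 median of -0.23. Tumours 4, 5, 9, 10 and 11 showed no step within the region, with segment means between -0.04 and 0.04. In tumours 9 and 11 a noise SD of 0.55 and 0.51 makes small steps harder to find, above all short ones. A small step over many probes was found further along chromosome 6 of tumour 11, where 126 probes beyond 67438831 averaged 0.30.

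In tumours 6, 7 and 8 all high gains found on any chromosome but Y were on chromosome 6. Tumour 8 had 241 probes in high gains, of which 231 lay in the region and 10 elsewhere on chromosome 6. Tumour 6 had 153, with 67 in the region and 86 further along the chromosome, and tumour 7 had 636, with 204 in the region and 432 further along. Tumour 3 had 2340, of which 127 were in the region and 2213 on other chromosomes.

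By segment mean, most other gains on chromosome 6 of tumour 6 came near the height of its block at Met, whose first segment averaged 3.42. A segment of 7 probes over Snd1, a nuclease domain protein gene, averaged 3.37 ± 0.10 and began 10.7 Mb to the right of the block. Next came 3 adjoining segments from 31359959 to 32396660, with means of 3.26, 3.06 and 3.32, over Mkln1, Podxl and the semaphorin receptor gene Plxna4. A further 5 probes at Dgki, a diacylglycerol kinase gene, averaged 2.35 ± 1.41. In tumour 7 a segment from 21300302 to 24623317 (262 probes) averaged 0.79 ± 0.22, close to the lower shelves of its block of 0.68 and 0.80, and began 1.75 Mb to the right of it. Its other gains on the chromosome had means from 0.67 upward.

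Genes of the HGF and MET pathway elsewhere in the genome were read by their gene means. Of 28 listed genes, 24 have at least 3 probes, and none of them had a mean of at least 0.6 or of at most -0.6 in tumours 3, 6, 7 or 8. Over all 9343 genes with at least 3 probes, the share with at least 0.6 was 1.18% in tumour 3, 0.161% in tumour 6, 0.396% in tumour 7 and 0.225% in tumour 8, and the share with at most -0.6 was 0.0107%, 0.0107%, 0.664% and 0.118%. At shares this low a list of 24 genes would hold few or none, so nothing is read from the count. The median of the list was 0.05, -0.01, 0.14 and -0.06 in tumours 3, 6, 7 and 8, against 0.00, 0.00, 0.01 and -0.01 over all genes. Hgf, the ligand, had means of 0.06, 0.10, 0.33 and -0.05 (7 probes). Among the adaptors and effectors, Gab1 had 0.25, -0.08, 0.27 and -0.01 (12 probes) and Grb2 0.14, 0.18, 0.09 and 0.33 (5 probes). Among the 24 genes, the highest was Pik3ca in tumour 3 at 0.47 and Itgb4, an integrin subunit that associates with the receptor, in tumour 8 at 0.58. The lowest of the 24 in each of the 4 tumours was Spint2, an inhibitor of the proteases that activate HGF, at -0.25, -0.21, -0.50 and -0.34 (3 probes). In the 7 tumours without a block Spint2 lay between -0.40 (tumour 1) and 0.10 (tumour 11). Pik3ca lay there between 0.01 (tumour 9) and 0.59 (tumour 1). The value of Pik3ca in tumour 3 and those of Spint2 in tumours 3, 6 and 8 lay within these ranges. Spint2 in tumour 7, at -0.50, lay below its range. Itgb4 lay between -0.09 (tumour 11) and 0.38 (tumour 2) in the tumours without a block. Its means of 0.21 and 0.12 in tumours 3 and 6 were within that range, and those of 0.50 and 0.58 in tumours 7 and 8 above it. These differences were not tested.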

How the data were processed

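Each deposited file lists, for every spot, the processed intensity of both channels, which the authors' software made by background subtraction and dye normalization, and raw median intensities. The LogRatio column is the log10 of processed red over green, per the file headers. The authors' value table holds the mean of it per probe as log2. The submitters' processing notes name Agilent Feature Extraction 10.5.1.1 and Partek. Per the file headers, 4 arrays used version 11.0.1.1, and positions are of build mm9.

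The log2 of processed red over green was averaged over the spots of a probe, outlier spots were left out, and the array median was subtracted. Chromosomes were cut by exact optimal partitioning (each added segment costs 2 times ln n times the squared noise SD, n being the chromosome's probe count, with 5 probes as the smallest segment and single probes pulled in to 4 SD of a running median of 11), which was tested on simulated data. The threshold of a high gain was 0.6. A gene's level is the mean of its probes, with the SD over probes, which share an array. One probe of the region was missing in tumour 3.

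The members, gene lists and thresholds were chosen with earlier results of these data known, and no test was made. Values are given for Met, for the marker and neighbour genes listed in advance, for genes at edges and steps and in any other high gain of the region, and for the 28 pathway genes. The normexp alternative used median signals in place of mean signals, since 4 arrays hold only medians (limma 3.58.1, R 4.3.3, offset 50). Names such as AK021346 or ENSMUST00000115420 are those of the array, and Tcfec was updated to Tfec from a table of a later build, of which no coordinate was used. Software was Python 3.11.15 (numpy 2.4.6, numba 0.67.0, pandas 2.3.3, matplotlib 3.10.9).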

Additional observations from a re-analysis of the deposited data

How the results depend on the processing

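The count of 4 tumours with Met in a high gain was the same under every alternative run that kept all tumours: other background correction, the deposited LogRatio, the authors' value table, other centring, filters on dim and outlier spots, other penalties, segment sizes and thresholds. Leaving out each tumour in turn gave 3 to 4, and a shared stretch of 0.462 to 1.14 Mb. With normexp the mean at Met was 0.36 in tumour 1, 3.96 in tumour 3, 4.38 in tumour 6, 2.50 in tumour 7 and 6.41 in tumour 8, and the cause was not tested. Centred on chromosome 6 outside the region it was 0.44 in tumour 1, 3.52 in tumour 6 and 2.32 in tumour 7. With its sign turned, tumour 11 had 0.27. The block of tumour 7 was 2.84 Mb with normexp and 2.02 Mb with a threshold of 1, and the cause under normexp was not tested. The other 54 of 56 block lengths moved by less than the gaps at their edges. Of 1001 values of the other named genes under alternatives, 936 moved by less than the SD over probes and none of the called ones changed sign. Among alternatives chosen after seeing the data, the step of tumour 8 was 0.71 with normexp, against 0.88, and that of tumour 6 was 1.14, against 0.85. The second block of tumour 8 kept its 1.02 Mb in the 4 alternatives run. The probes of tumour 7 in high gains on chromosome 6 outside the region fell to 49 with a threshold of 1, against 432, and those of tumour 6 numbered 84 with at least 10 probes per segment, against 86.

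No paired analysis was possible because the tumours form 1 group, and each ratio already sets a tumour against the liver of its own mouse. Depth does not apply to arrays. The noise of tumours 9 and 11 limits the detection of small changes, and edges are known only to the gap between 2 probes.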
